A study of Mus musculus with 13 samples.

Results

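Loss of Eed and loss of Ezh2 were compared directly in crypts of the mouse small intestine, as 3 Eed knockout (KO) libraries against 3 Ezh2 KO libraries. The 6 libraries were chosen by their labels from the 13 RNA-seq libraries of the series. 3 wild-type (WT) crypt libraries entered the fit so that the difference between sequencing runs could be estimated, and their values are given beside those of the knockouts. All 9 crypt libraries came from mice of mixed C57BL/6-FVB background that were 6 weeks old when a 6-week treatment with beta-naphthoflavone began, the WT mice included. This compound induces the AhCre recombinase, whose promoter responds to the aryl hydrocarbon receptor, and the Cre deletes floxed alleles in the epithelium. The knockout genotypes are labelled Eed-/- and Ezh2-/-. AhCre and the floxed alleles are named in the labels of the run 440 crypts and not in those of the run 385 crypts. Which cells kept an undeleted allele was not measured here. The promoter that drives AhCre acts in the epithelium, and RNA of other cells in the same preparation is part of each library.

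Polycomb repressive complex 2 (PRC2) places methyl groups on lysine 27 of histone H3, a mark of silent genes. Eed is a core subunit that binds the mark and is needed by every form of the complex. Ezh2 is the catalytic subunit of most PRC2 in dividing cells, and its paralog Ezh1 can take its place in some forms. Genes that PRC2 holds silent in differentiated tissues include the Hox genes, many transcription factors of other organs, and the cell cycle inhibitor gene Cdkn2a. In the crypt, stem cells and Paneth cells lie at the base, and dividing progenitors above them give rise to absorptive enterocytes and to the secretory goblet, enteroendocrine and tuft cells.

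All 3 Ezh2 KO libraries were sequenced in run 440. Eed KO libraries 385_1 and 385_2 came from run 385 and Eed KO 440_1 from run 440. WT libraries 385_1 and 385_2 came from run 385 and WT 440_1 from run 440. Values per library are given below in that order, as CPM, counts scaled to a common library size with edgeR's TMM factors. The 6 knockout libraries held 11421666 to 16284618 counts and the WT libraries 11606406 to 18300644. Mitochondrially encoded genes took 16.5%, 18.02% and 3.71% of the counts in the Eed KO libraries and 3.85% to 6.47% in the Ezh2 KO libraries. The Ezh2 KO libraries correlated with each other at 0.979 to 0.984 over genes on the log2 CPM scale, and with WT 440_1 at 0.972 to 0.979. Their correlation with Eed KO 440_1, of the same run, was 0.872 to 0.893. The labels do not state separate mice for the libraries of 1 group, so a p-value reflects library-to-library spread, which may be technical. Because all Ezh2 KO libraries belong to run 440, the comparison within that run sets 1 Eed KO library against 3 Ezh2 KO libraries, and the counts within that run are given with each list. The spread in that fit comes from the 3 Ezh2 KO libraries alone, with 2 residual degrees of freedom, and the lone Eed KO library is assumed to vary like them. Its libraries are part of the fit over both runs, so it is not independent of it.

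The labels were checked first on the targeted genes. Eed was at 16.1, 25.2 and 17.2 CPM in the Eed KO libraries, at 47.7, 68.4 and 52.7 CPM in the Ezh2 KO libraries and at 55.5, 63.4 and 48.6 CPM in the WT libraries. The Eed KO values lay below all others, and Eed KO minus Ezh2 KO was -1.72 ± 0.27, adjusted p = 0.00276 (log2 difference ± standard error, edgeR's quasi-likelihood test with Benjamini-Hochberg adjustment over 13966 genes, as for all adjusted p-values below). Ezh2 was at 52.5, 53.4 and 35.3 CPM in the Eed KO libraries, 21.6, 17.8 and 17.9 CPM in the Ezh2 KO libraries and 94.9, 100.1 and 70.02 CPM in the WT libraries. The 3 groups did not overlap for Ezh2, with Ezh2 KO lowest, Eed KO between and WT highest (Eed KO minus Ezh2 KO 0.92 ± 0.17, adjusted p = 0.00556). Counts were summed over whole genes, and the floxed exons are not named in the labels, so transcripts from a deleted allele can still contribute.

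**Figure D1:**
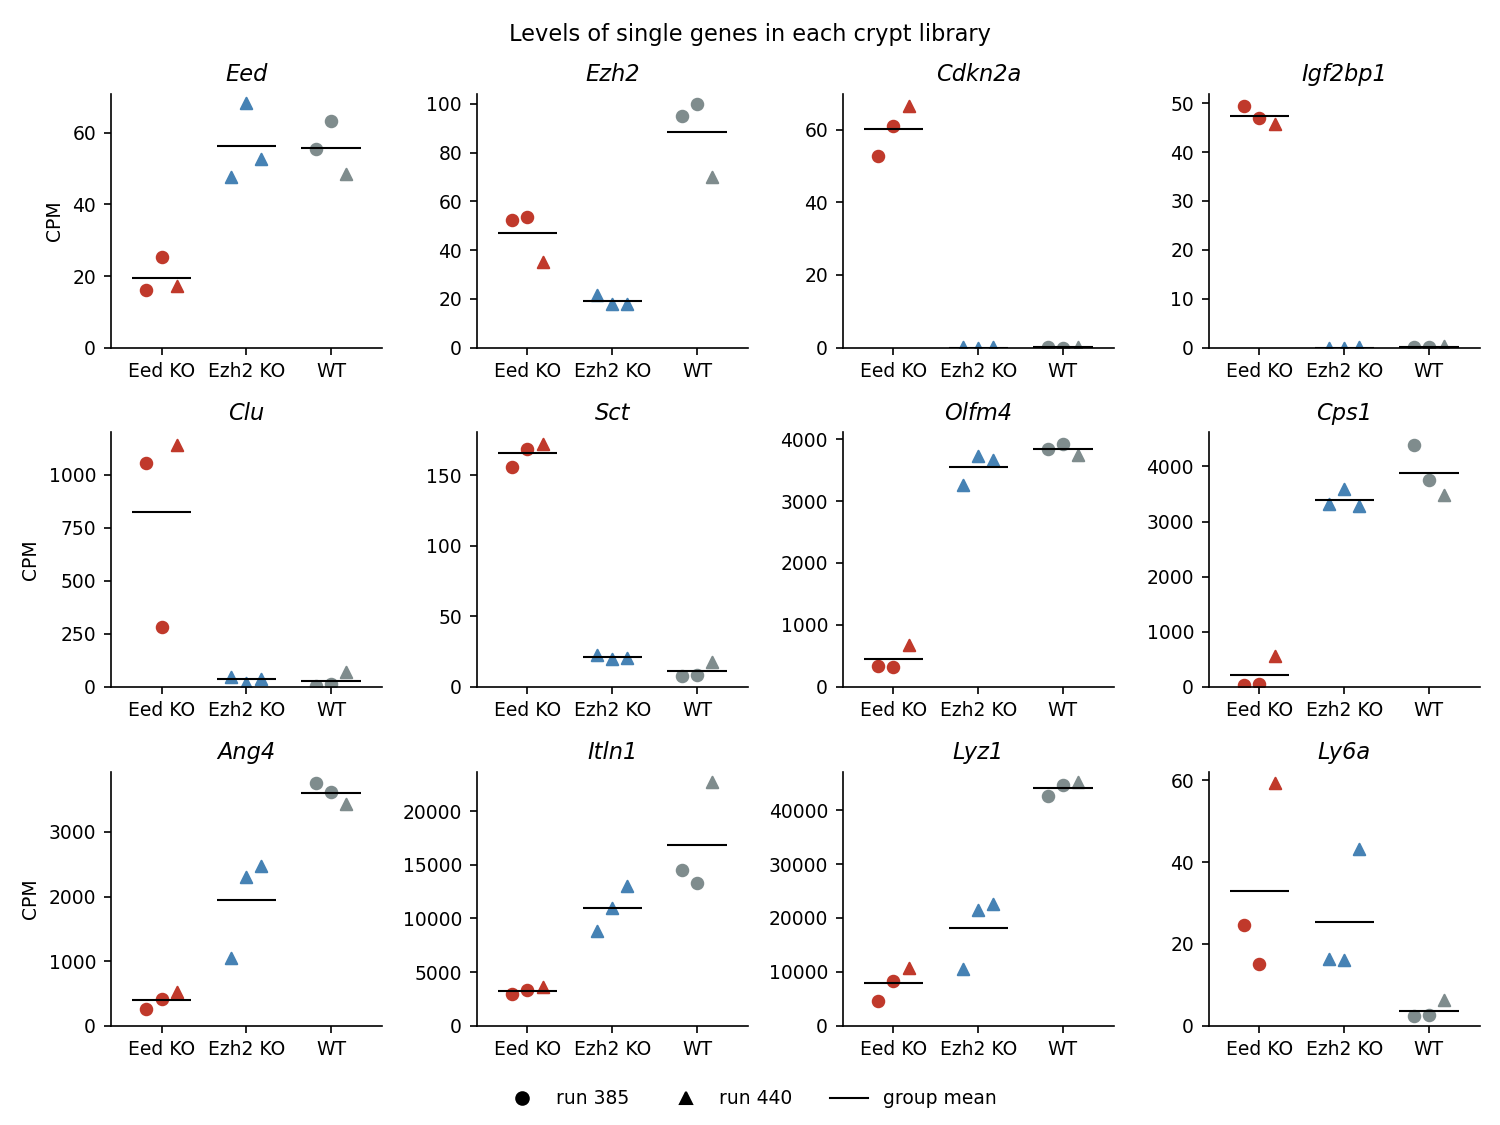
CPM of 12 genes (vertical axes, each from 0) in the 9 crypt libraries, by group on the horizontal axis. Circles are run 385, triangles run 440 and lines group means; Eed and Ezh2 are lowest in their own knockout, and Lyz1 lies between 4569 and 22599 CPM in the knockouts and from 42534 CPM up in WT.

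PRC2 genes were read from a list of 11 subunits, which holds the deleted genes Eed and Ezh2 too. 2 were higher in Eed KO (Ezh2 and Epop), and 4 were lower (Eed, Suz12, Jarid2 and Aebp2). The shares over all genes tested were 12.7% higher and 7.97% lower. The calls of Eed and Ezh2 were set by the knockouts, so the counts of this list are not weighed against those shares. Suz12, a core subunit, was at 107, 112 and 33.9 CPM in Eed KO and 117, 147 and 78.7 CPM in Ezh2 KO, and the groups overlapped (difference -1.36 ± 0.36, adjusted p = 0.027). Jarid2, which recruits the complex to DNA, was at 55.4, 44.8 and 49.5 CPM against 93.01, 87.02 and 89.2 CPM, without overlap (-0.97 ± 0.18, adjusted p = 0.0071). Ezh1, the paralog of Ezh2, was at 54.996, 49.5 and 69.6 CPM in Eed KO and 52.5, 35.7 and 43.4 CPM in Ezh2 KO. These groups overlapped, and the difference of 0.46 had an adjusted p of 0.186. PRC1 is a complex with subunits that read the PRC2 mark. Of its 21 subunits, 3 were higher in Eed KO, Cbx6 and Scmh1 among them (14.3%, near the 12.7% of all genes tested). 0 were lower, beside 7.97%, and the median was 0.01. Cbx6, one of the subunits that bind the mark, was at 43.7, 23.7 and 45.8 CPM against 15.01, 10.2 and 17.1 CPM (2.01 ± 0.42, adjusted p = 0.0103). Of the PRC2 subunits, 2 were higher and 3 lower within run 440 alone, and with both runs the number higher was 1 without WT 385_1 or 385_2, each Ezh2 KO library in turn or Eed KO 440_1, and the number lower was 2 without WT 385_2, Ezh2 KO 440_2 or Eed KO 440_1. Of the PRC1 subunits, 3 were higher and 1 lower within run 440 alone, and with both runs the number lower was 1 without Eed KO 385_1 or 385_2, 2 without Eed KO 440_1 and 3 without WT 440_1. Significance was lost for Epop without WT 385_1 or 385_2, each Ezh2 KO library in turn or Eed KO 440_1 (adjusted p up to 0.0887), for Suz12 without WT 385_2, Ezh2 KO 440_1 or 440_2 or Eed KO 440_1 (adjusted p up to 0.251) and for Aebp2 without WT 385_1 or 385_2, Ezh2 KO 440_2 or 440_3 or each Eed KO library in turn and within run 440 alone (adjusted p up to 0.185).

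Over all genes tested, 1779 were higher in Eed KO than in Ezh2 KO (12.7%) and 1113 were lower (7.97%), with a median difference of -0.01. The higher genes had the larger differences: their median was 2.21 on the log2 scale, 584 of them reached 3, and 223 had 3 counts or fewer in all 3 Ezh2 KO libraries together. The lower genes had a median of -1.14, and 62 of them reached -3. Within run 440 alone, 1717 genes were higher (12.0% of 14320 tested) and 1191 lower (8.32%), of which 1382 and 749 also passed the threshold over both runs. Leaving out 1 library moved the counts of Eed KO minus Ezh2 KO between 1093 (without Eed KO 440_1) and 1910 (without WT 440_1) for higher genes and between 578 (without Ezh2 KO 440_2) and 2109 (without WT 440_1) for lower genes. Without Eed KO 440_1 the Eed KO libraries all lie in run 385 and the Ezh2 KO libraries all in run 440, so that a gene without counts in WT gives no estimate of the run difference. From the model of all 9 libraries, Eed KO minus WT gave 1896 higher (13.6%) and 1417 lower genes (10.1%). Ezh2 KO minus WT gave 0 higher and 2 lower genes (0.0143%), namely Ezh2 itself and the pseudogene Gm7809, with 1141 genes at an unadjusted p under 0.05. These 3 comparisons share libraries, so they are not independent of each other, and the WT differences below are given as values beside the Eed KO minus Ezh2 KO difference.

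**Figure D2:**
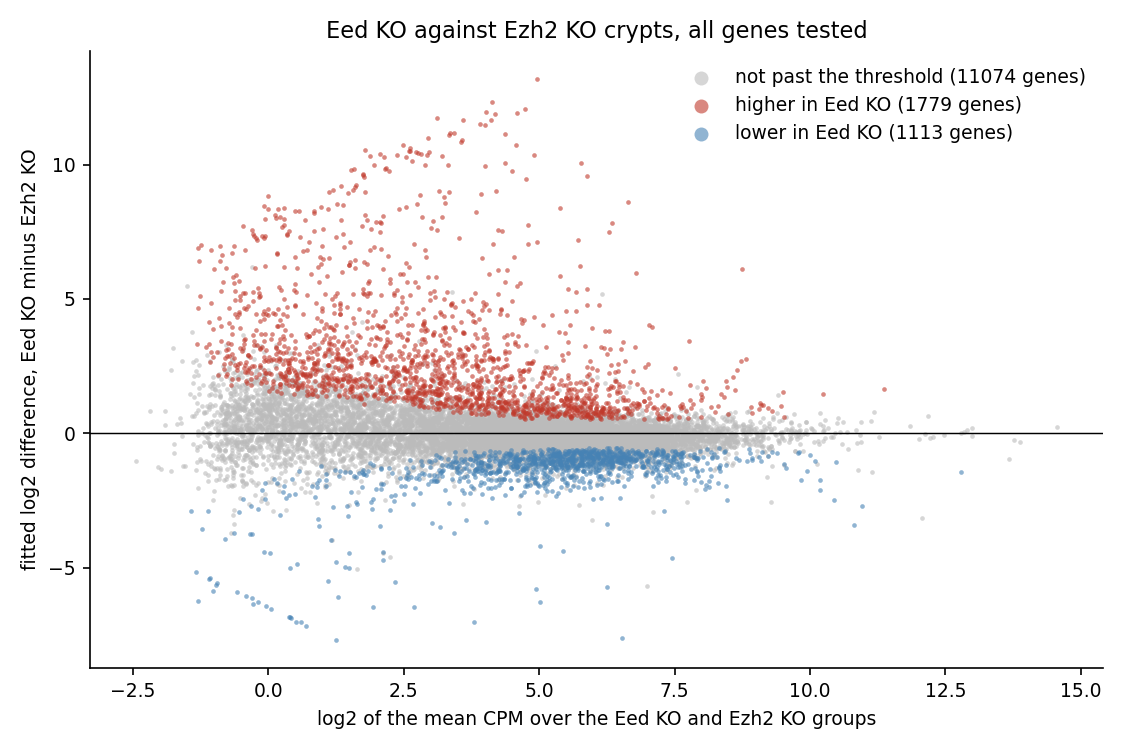
Fitted log2 difference, Eed KO minus Ezh2 KO, against the log2 mean CPM of both groups for the 13966 genes tested. Red points are the 1779 genes higher in Eed KO and blue points the 1113 lower; the differences above 5 are far more numerous than those below -5.

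The 12 largest higher protein-coding genes were all without a count in the 3 Ezh2 KO libraries. 9 of the 12 are transcription factor genes that pattern other organs: Hoxb13, Hoxa10, Sim2, Zic1, En2, Sox17, Pax9, Sp8 and Zic2. The other 3 were Tmprss6, a membrane protease of liver iron sensing, Sftpd, a surfactant protein of the lung, and Ednrb, an endothelin receptor. Hoxb13, a marker of the posterior gut and prostate, was at 51.2, 51.98 and 84.1 CPM in Eed KO and had no count in any Ezh2 KO or WT library. Its level in Eed KO was at least 1026-fold higher than the level that 3 counts over the Ezh2 KO libraries would give (adjusted p = 0.000152). On the same floor Zic1, a neural patterning factor, was at least 748-fold higher, with 53.97, 54.96 and 35.6 CPM in Eed KO. Ednrb was at 15.5, 29.8 and 26.9 CPM in Eed KO and at 0.0930, 0.193 and 0.297 CPM in WT, and was at least 385-fold higher than in Ezh2 KO. All 3 Eed KO libraries carried these genes, as the rule that chose them required groups that did not overlap. An adjusted p over 0.05 was reached for Hoxb13, Hoxa10, Sim2, Zic1, En2, Sox17, Pax9, Sp8, Zic2, Tmprss6 and Sftpd without Eed KO 440_1 (adjusted p up to 1).

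**Figure D3:**
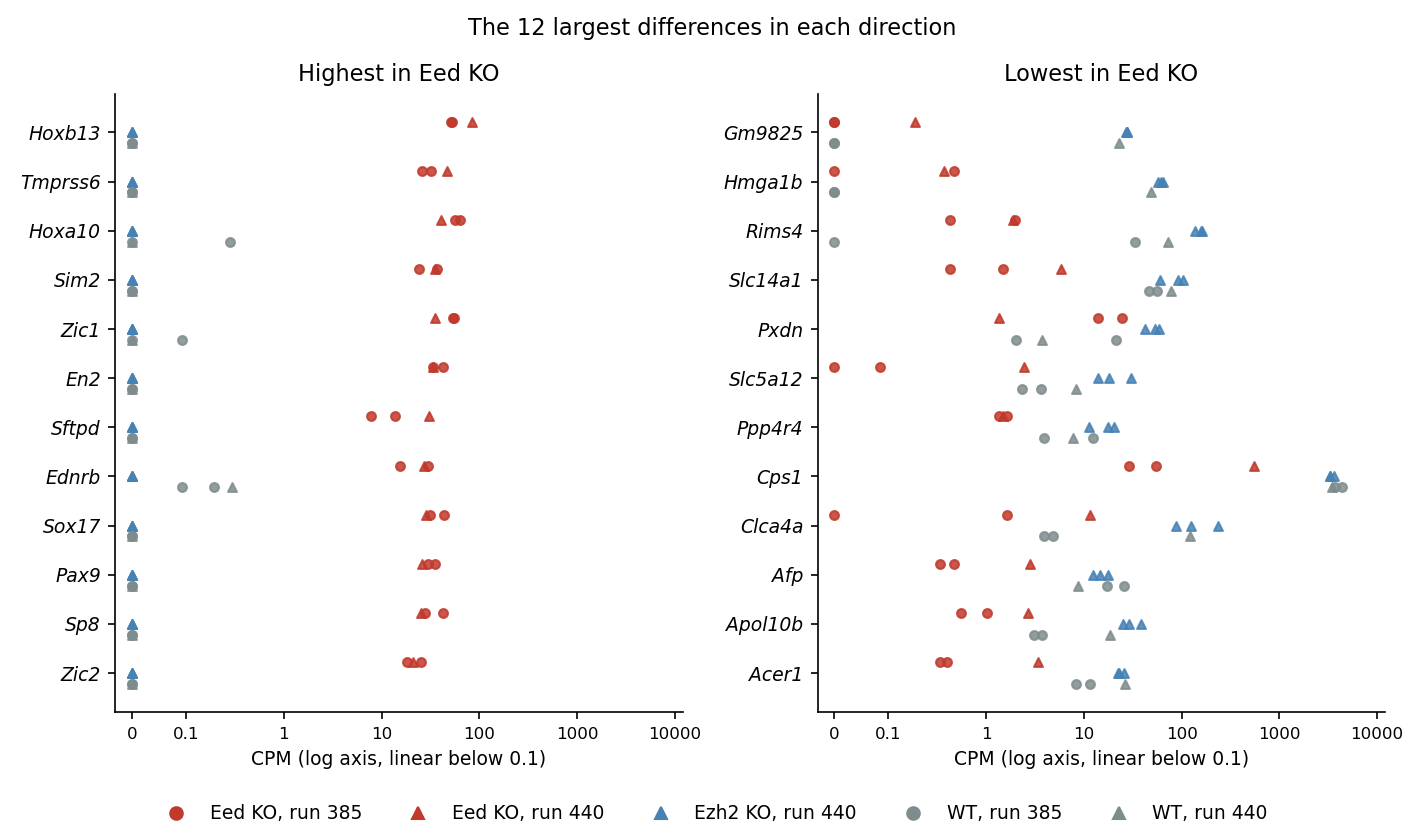
CPM (horizontal axis, logarithmic and linear below 0.1) of the 12 largest higher and 12 largest lower protein-coding genes in each crypt library. Circles are run 385 and triangles run 440; the higher genes are at 0 in the Ezh2 KO libraries, and several of the lower genes also differ between the WT libraries of the 2 runs.

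Of the 12 largest lower genes, several also differed between the runs in WT. Gm9825 and Hmga1b were at 0 in both run 385 WT libraries and at 22.9 and 49.0 CPM in WT 440_1. Both were under 0.5 CPM in all Eed KO libraries, that of run 440 included, and Hmga1b has near-identical copies that can share its reads. The Hmga1b difference of -5.79 turned to 0.70 with DESeq2 and to 4.48 without Eed KO 440_1. Slc14a1, a urea transporter, did not have that split: it was at 1.49, 0.426 and 5.78 CPM in Eed KO, 59.7, 102 and 92.2 CPM in Ezh2 KO and 55.7, 46.4 and 76.97 CPM in WT (-4.39 ± 0.56, adjusted p = 0.00109). Its Eed KO values lay below those of every other library. Afp, the fetal serum protein alpha-fetoprotein, was at 0.472, 0.341 and 2.80 CPM against 14.8, 12.3 and 17.7 CPM (-3.36 ± 0.79, adjusted p = 0.0173), with WT at 25.8, 17.3 and 8.74 CPM. Acer1, a ceramidase, was at 0.393, 0.341 and 3.42 CPM against 25.5, 22.3 and 23.1 CPM (-3.22 ± 0.41, adjusted p = 0.0011). The other 7 were Rims4, Pxdn, Slc5a12, Ppp4r4, Clca4a, Apol10b and Cps1, with differences from -5.74 (Rims4) to -3.32 (Apol10b). In WT, Rims4 was at 33.4, 0 and 72.2 CPM and Clca4a at 3.91, 4.82 and 122 CPM. Eed KO 440_1, of the same run as WT 440_1, was at 1.87 CPM for Rims4 and 11.6 CPM for Clca4a. The cause of the differences between WT libraries was not tested. Calls were lost for Gm9825 and Clca4a without Eed KO 440_1 (highest adjusted p per gene 0.175 to 1), for Hmga1b without WT 385_2, each Ezh2 KO library in turn or Eed KO 385_2 or 440_1 (adjusted p up to 0.183), for Rims4 without WT 385_1 or 440_1, each Ezh2 KO library in turn or Eed KO 385_2 or 440_1 (adjusted p up to 0.202), for Pxdn without WT 385_1, Ezh2 KO 440_1 or Eed KO 440_1 (adjusted p up to 0.179) and for Cps1 without Ezh2 KO 440_2 (adjusted p up to 0.0503).

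The Hox genes encode the transcription factors that set position along the body axis, and they lie in 4 clusters whose order follows that axis. Of 39 listed, 36 were in both count tables and 35 passed the filter on low counts. 31 of the 35 were higher in Eed KO and 0 were lower, with a median log2 difference of 5.21, or 4.96 with genes that had no Ezh2 KO count set at their bound. The median over all genes tested was -0.01. Genes silent in Ezh2 KO entered the test only through the Eed KO libraries, so this count describes the members and does not stand as a test of the list, here and in the lists below. Summed over the 36 genes, the lowest, middle and highest library stood at 397, 474 and 511 CPM in Eed KO, 12.97, 18.7 and 20.7 CPM in Ezh2 KO and 8.28, 13.5 and 23.4 CPM in WT. The Eed KO libraries did not overlap the others, and the Ezh2 KO range lay within the WT range. Of the Hox genes, 27 were higher and 0 lower within run 440 alone, and with both runs the number higher was 18 without Eed KO 440_1.

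The Hox genes differed by position in the clusters. At the posterior ends (paralogs 9 to 13), counts in Ezh2 KO were at or near 0: Hoxa10, Hoxa11, Hoxa13, Hoxb13, Hoxc10, Hoxc11, Hoxc12, Hoxc13, Hoxd10 and Hoxd11 had none, and neither had Hoxc9. Hoxc9 and Hoxa10 had 1 to 3 counts in 1 WT library, and the others named here had none in WT. Hoxa9 was at 42.1, 49.4 and 32.7 CPM in Eed KO and had 1 count over the 3 Ezh2 KO libraries, a ratio of 1933-fold (95% exact counting interval 346 to 76386), with an adjusted p of 3.39e-05. Hoxd13 was at 34.5, 31.5 and 29.3 CPM in Eed KO, with 1 count in Ezh2 KO and none in WT. Most anterior members (paralogs 1 to 8) had counts in Ezh2 KO and WT alike. Hoxa3 was at 9.52, 7.84 and 8.21 CPM in Eed KO, 4.15, 4.60 and 3.95 CPM in Ezh2 KO and 2.98, 3.66 and 4.04 CPM in WT (1.07 ± 0.29, adjusted p = 0.0308). Hoxb6 was at 21.2, 34.1 and 18.2 CPM, 2.11, 0.511 and 1.38 CPM and 0.0930, 1.06 and 2.26 CPM in the same order (4.55 ± 0.84, adjusted p = 0.00611). The Ezh2 KO values of both genes overlapped those of WT. Hoxb9 had counts in every library, which Hoxa9, Hoxc9 and Hoxd9 had not, at 1.86, 0.319 and 1.07 CPM in Ezh2 KO and 0.0930, 0.0964 and 1.19 CPM in WT, against 28.1, 28.5 and 24.9 CPM in Eed KO (5.21 ± 0.78, adjusted p = 0.00238). The 4 tested members not past the threshold were Hoxa4, Hoxb2, Hoxc5 and Hoxd3. Hoxd3 stood at 26.04, 36.98 and 0.0622 CPM in Eed KO, high in the run 385 libraries and near 0 in the run 440 library, with no count in Ezh2 KO. The call ended for Hoxa11, Hoxa13, Hoxc10, Hoxc11, Hoxc12, Hoxc13, Hoxd10, Hoxd11, Hoxa9, Hoxd13 and Hoxd9 without Eed KO 440_1 (highest adjusted p per gene 0.0593 to 1) and for Hoxa3 without each of the 9 libraries in turn and within run 440 alone (adjusted p up to 0.102).

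**Figure D4:**
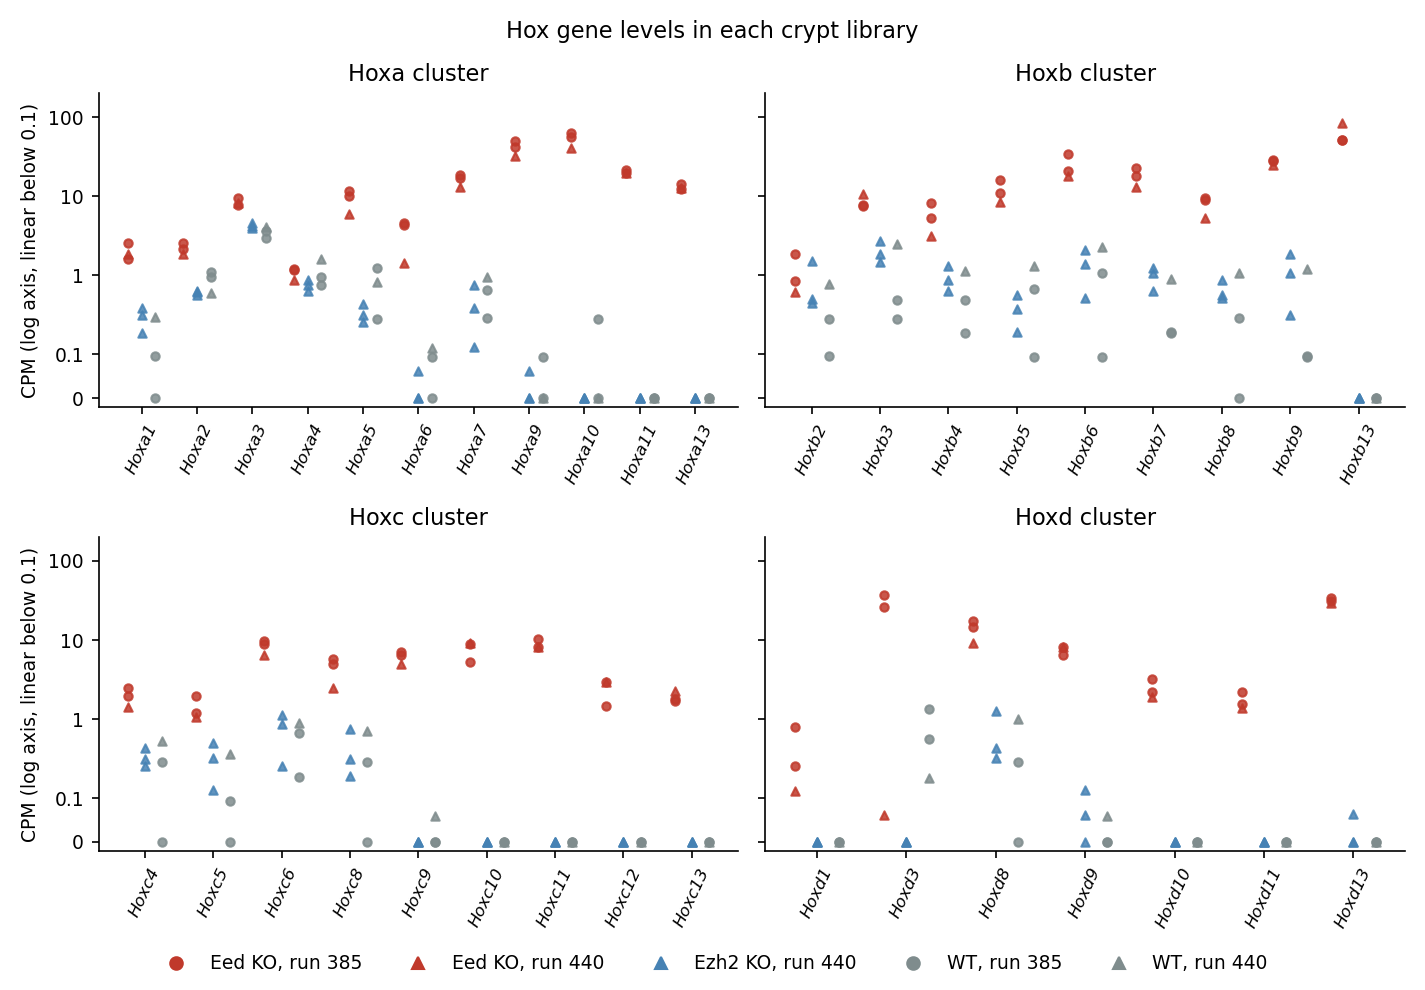
CPM (vertical axis, logarithmic and linear below 0.1) of the Hox genes of each cluster in paralog order, in Eed KO (red), Ezh2 KO (blue) and WT (grey) libraries; circles are run 385 and triangles run 440. Posterior genes such as Hoxb13 are at 0 in every Ezh2 KO and WT library and between 51.2 and 84.1 CPM in Eed KO.

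Promoters of some genes higher in Eed KO are shown because CpG content is known to mark many PRC2 targets. The 250 bases before the start are given 5′ to 3′ on the strand of the gene, from RefSeq on GRCm38.p6, with every CG in capitals. The motif searched was CG, which reads the same on both strands. Of 32851 promoters in that table, 92.1% held at least 1 CG in this window, and the median was 6. Cdkn2a was the cyclin-dependent kinase (CDK) inhibitor and Hoxa9 the Hox gene of smallest p, and Hoxa10 was the gene of largest positive difference with a promoter in the table. Cdkn2a has 2 starts, which belong to its 2 products, and the gene-level counts do not separate them.
Cdkn2a, upstream start, chr4:89294620-89294869, minus strand: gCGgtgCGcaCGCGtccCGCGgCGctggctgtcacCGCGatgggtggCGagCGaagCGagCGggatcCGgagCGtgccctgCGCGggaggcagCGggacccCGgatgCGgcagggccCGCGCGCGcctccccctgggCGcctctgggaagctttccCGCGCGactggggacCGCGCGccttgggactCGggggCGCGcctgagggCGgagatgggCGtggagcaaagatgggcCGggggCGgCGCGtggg
Cdkn2a, downstream start, chr4:89282193-89282442, minus strand: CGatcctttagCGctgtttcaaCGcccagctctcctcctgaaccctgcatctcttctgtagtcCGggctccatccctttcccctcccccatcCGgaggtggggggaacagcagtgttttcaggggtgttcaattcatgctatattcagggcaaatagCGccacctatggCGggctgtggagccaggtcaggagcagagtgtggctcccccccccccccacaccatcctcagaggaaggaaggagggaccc
Hoxa10, chr6:52234940-52235189, minus strand: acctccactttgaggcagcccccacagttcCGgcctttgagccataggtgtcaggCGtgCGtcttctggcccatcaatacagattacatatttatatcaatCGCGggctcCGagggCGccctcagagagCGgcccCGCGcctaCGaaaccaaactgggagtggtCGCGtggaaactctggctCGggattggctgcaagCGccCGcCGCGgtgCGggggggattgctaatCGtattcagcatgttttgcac
Hoxa9, chr6:52227371-52227620, minus strand: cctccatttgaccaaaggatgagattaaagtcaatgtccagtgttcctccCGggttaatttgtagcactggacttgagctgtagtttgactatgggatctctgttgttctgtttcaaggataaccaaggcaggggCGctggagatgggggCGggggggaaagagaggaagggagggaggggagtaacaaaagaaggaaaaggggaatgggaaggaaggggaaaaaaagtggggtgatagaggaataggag
The upstream Cdkn2a window held 40 CG, a number reached by 1.31% of the promoters, and the downstream window held 7, reached by 46.3%. The Hoxa10 window shown held 20 CG (reached by 17.9%), and the window at the other Hoxa10 start held 7. The Hoxa9 window held 3 CG (reached by 71.0%), so the windows shown ranged from 3 to 40 CG. Hmga1b was the lower gene of largest difference with a promoter in the table. Its window, not printed here, held 4 CG (reached by 62.2%). Bases after the start were not counted. A comparison of CpG content over all called genes was void, because 75.9% of the genes tested had a promoter in the table.

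Other transcription factor genes of development were read next. Of 45 tested homeobox genes of other tissues, 37 were higher in Eed KO and 1, Mnx1, was lower (median 7.34, 5.62 at the bounds). 27 further members in the tables did not pass the filter on low counts. Of 32 tested Sox, Tbx, Fox, Zic, Sp and bHLH genes, 28 were higher and 0 lower, and 18 further members did not pass the filter. Of the tested members, 23 homeobox and 14 of the other factor genes had no count in Ezh2 KO, so their counts there could not exceed those in Eed KO. Pax9, a pharyngeal and tooth factor, was at 34.9, 29.7 and 25.9 CPM in Eed KO and had no count in Ezh2 KO or WT, at least 475-fold higher on the floor of 3 counts. Pax3, a neural crest and muscle factor, was at 21.95, 15.5 and 15.5 CPM, with 1 count in Ezh2 KO, a ratio of 836-fold (95% exact counting interval 149.6 to 33076). Lhx2, which patterns the forebrain, was at 20.8, 15.3 and 20.6 CPM against 2 counts in Ezh2 KO, a ratio of 456-fold (95% exact counting interval 126 to 3775). Sox2, a foregut and stem cell factor, was at 24.4, 20.6 and 15.2 CPM, with 1 count in Ezh2 KO, a ratio of 938-fold (95% exact counting interval 168 to 37076). Sox17, an early endoderm factor, was at 31.2, 43.97 and 28.5 CPM with no count in Ezh2 KO or WT. For these genes each Eed KO library was above every Ezh2 KO and WT library. Significance was lost for Pax3 and Sox2 without Eed KO 440_1 (adjusted p up to 1).

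Mnx1 was the 1 homeobox gene of this list that was lower. It was at 1.57, 1.19 and 5.66 CPM in Eed KO, 13.6, 13.99 and 13.6 CPM in Ezh2 KO and 9.95, 10.4 and 12.1 CPM in WT (-1.76 ± 0.41, adjusted p = 0.0162), with all Eed KO values below the others. Of the homeobox factors, 37 were higher and 1 lower within run 440 alone, and with both runs the number higher was 8 without Eed KO 440_1, and the number lower was 4 without Eed KO 440_1. Of the Sox, Tbx, Fox, Zic, Sp and bHLH factors, 29 were higher and 0 lower within run 440 alone, and with both runs the number higher was 4 without Eed KO 440_1, and the number lower was 1 without Eed KO 440_1.

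Among secreted developmental signals, 6 of 27 tested ligands and antagonists were higher in Eed KO and 2 were lower (median 1.14). The higher ones were Wnt4, Wnt7b and Wnt10a of the Wnt family, the hedgehog ligands Shh and Ihh, and Igf2. Wnt4 was at 54.1, 42.7 and 87.2 CPM in Eed KO, 0.992, 0.192 and 0.627 CPM in Ezh2 KO and 0.372, 0.964 and 1.13 CPM in WT (7.13 ± 0.47, adjusted p = 6.54e-05). Ihh, the hedgehog ligand of the adult intestinal epithelium, was at 69.3, 56.2 and 156 CPM against 37.6, 29.2 and 29.1 CPM (1.97 ± 0.29, adjusted p = 0.00223). Shh, which the adult small intestine expresses at low levels, was at 4.17, 5.28 and 4.85 CPM against 0.124, 0.319 and 0.251 CPM (4.45 ± 0.55, adjusted p = 0.000998). The 2 lower genes were Bmp3 and Sfrp5, a Wnt antagonist, the latter at 5.27, 4.77 and 6.96 CPM against 33.6, 44.6 and 53.7 CPM (-2.98 ± 0.37, adjusted p = 0.000998). For the 4 genes with values here, no Eed KO library overlapped an Ezh2 KO library. Of the developmental ligands and antagonists, 7 were higher and 2 lower within run 440 alone. An adjusted p over 0.05 was reached for Wnt10a without Eed KO 440_1 (adjusted p up to 0.769). The Wnt10a difference turned to -0.063 without Eed KO 440_1.

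Cdkn2a, which encodes p16 and Arf, was at 52.8, 61.1 and 66.6 CPM in Eed KO. It had 2 counts over the 3 Ezh2 KO libraries, at 0.0620, 0 and 0.0627 CPM, and 0.0930, 0 and 0.0594 CPM in WT. The ratio of Eed KO to Ezh2 KO was 1448-fold (95% exact counting interval 400.4 to 11964), with an adjusted p of 7.07e-06. Cdkn1a, the p21 inhibitor and a p53 target, was at 296, 198 and 397 CPM in Eed KO, 79.9, 52.5 and 66.1 CPM in Ezh2 KO and 40.6, 35.9 and 42.4 CPM in WT (2.42 ± 0.26, adjusted p = 0.000536). Of the 7 inhibitors, those 2 were higher in Eed KO, and Cdkn2c and Cdkn1b were lower. Cdkn1b, the p27 inhibitor, was at 54.4, 62.9 and 41.97 CPM against 96.5, 73.2 and 78.4 CPM (-0.95 ± 0.21, adjusted p = 0.0136). Cdkn2b, the neighbour of Cdkn2a, was at 15.6, 15.9 and 30.2 CPM against 22.8, 14.2 and 8.21 CPM, with overlap (0.55 ± 0.49, adjusted p = 0.462). Of the CDK inhibitors, 2 were higher and 2 lower within run 440 alone, and with both runs the number lower was 1 without Eed KO 440_1. Calls were lost for Cdkn1b without Eed KO 440_1 (adjusted p up to 0.0795).

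Of 24 tested p53 target genes, 15 were higher in Eed KO and 1 was lower, with a median of 1.45. Psrc1, a spindle protein, was at 144, 144 and 111 CPM in Eed KO, 13.6, 10.99 and 15.5 CPM in Ezh2 KO and 12.8, 15.4 and 14.3 CPM in WT (3.19 ± 0.21, adjusted p = 6.37e-05). Gdf15, a stress-induced secreted factor, was at 30.8, 20.5 and 41.2 CPM against 1.36, 1.53 and 1.63 CPM (4.80 ± 0.29, adjusted p = 5.6e-05). Mdm2, which degrades p53, was at 109, 125 and 66.03 CPM against 44.7, 40.2 and 40.6 CPM (0.84 ± 0.22, adjusted p = 0.0246). Sesn1 was the lower member, at 17.6, 18.7 and 26.8 CPM against 74.1, 50.9 and 49.5 CPM (-1.31 ± 0.26, adjusted p = 0.00811). Ccng1 stood at 667, 858 and 174 CPM in Eed KO, high in run 385 and lower in run 440, and at 78.2, 136 and 66.7 CPM in Ezh2 KO (1.46 ± 0.44, adjusted p = 0.0439). In the same fit the median of the list was 1.39 for Eed KO minus WT and 0.03 for Ezh2 KO minus WT. Of the p53 target genes, 11 were higher and 1 lower within run 440 alone. The call ended for Mdm2 without WT 385_2 or 440_1 or each Ezh2 KO library in turn and within run 440 alone (adjusted p up to 0.0898) and for Ccng1 without each WT library in turn, Ezh2 KO 440_1 or 440_3 or Eed KO 385_1 or 385_2 and within run 440 alone (adjusted p up to 0.136).

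Proliferation genes were lower in Eed KO. Of 45 cell cycle genes, 34 were lower and 3, the D-type cyclins Ccnd1, Ccnd2 and Ccnd3, were higher (median -1.08). The median for Ezh2 KO minus WT in the same fit was 0.04. Ccna2, a cyclin of DNA replication and mitosis, was at 65.8, 65.01 and 66.03 CPM in Eed KO, 213, 249 and 216 CPM in Ezh2 KO and 200.2, 202 and 187 CPM in WT (-1.81 ± 0.17, adjusted p = 0.000299). Top2a, a topoisomerase of dividing cells, was at 232, 189 and 80.2 CPM against 557, 695 and 386 CPM (-2.47 ± 0.34, adjusted p = 0.00169). Mki67, the Ki-67 antigen, was at 281, 266 and 59.8 CPM against 316, 541 and 226 CPM (-1.999 ± 0.50, adjusted p = 0.023), with 2 Eed KO values above the lowest Ezh2 KO value. Ccnd2 was at 2015, 1499 and 2012 CPM in Eed KO and 455, 711 and 590.1 CPM in Ezh2 KO (1.47 ± 0.32, adjusted p = 0.0135), without overlap. Of the cell cycle genes, 3 were higher and 28 lower within run 440 alone, and with both runs the number higher was 1 without Eed KO 440_1. Significance was lost for Ccnd1 without each WT library in turn, Ezh2 KO 440_1 or 440_3 or Eed KO 385_1 or 440_1 (adjusted p up to 0.162) and for Ccnd2 and Mki67 without Eed KO 440_1 (highest adjusted p per gene 0.18 to 0.268). In bulk RNA, fewer cells of a type and less RNA per cell cannot be told apart, which applies to this and to every list below.

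**Figure D5:**
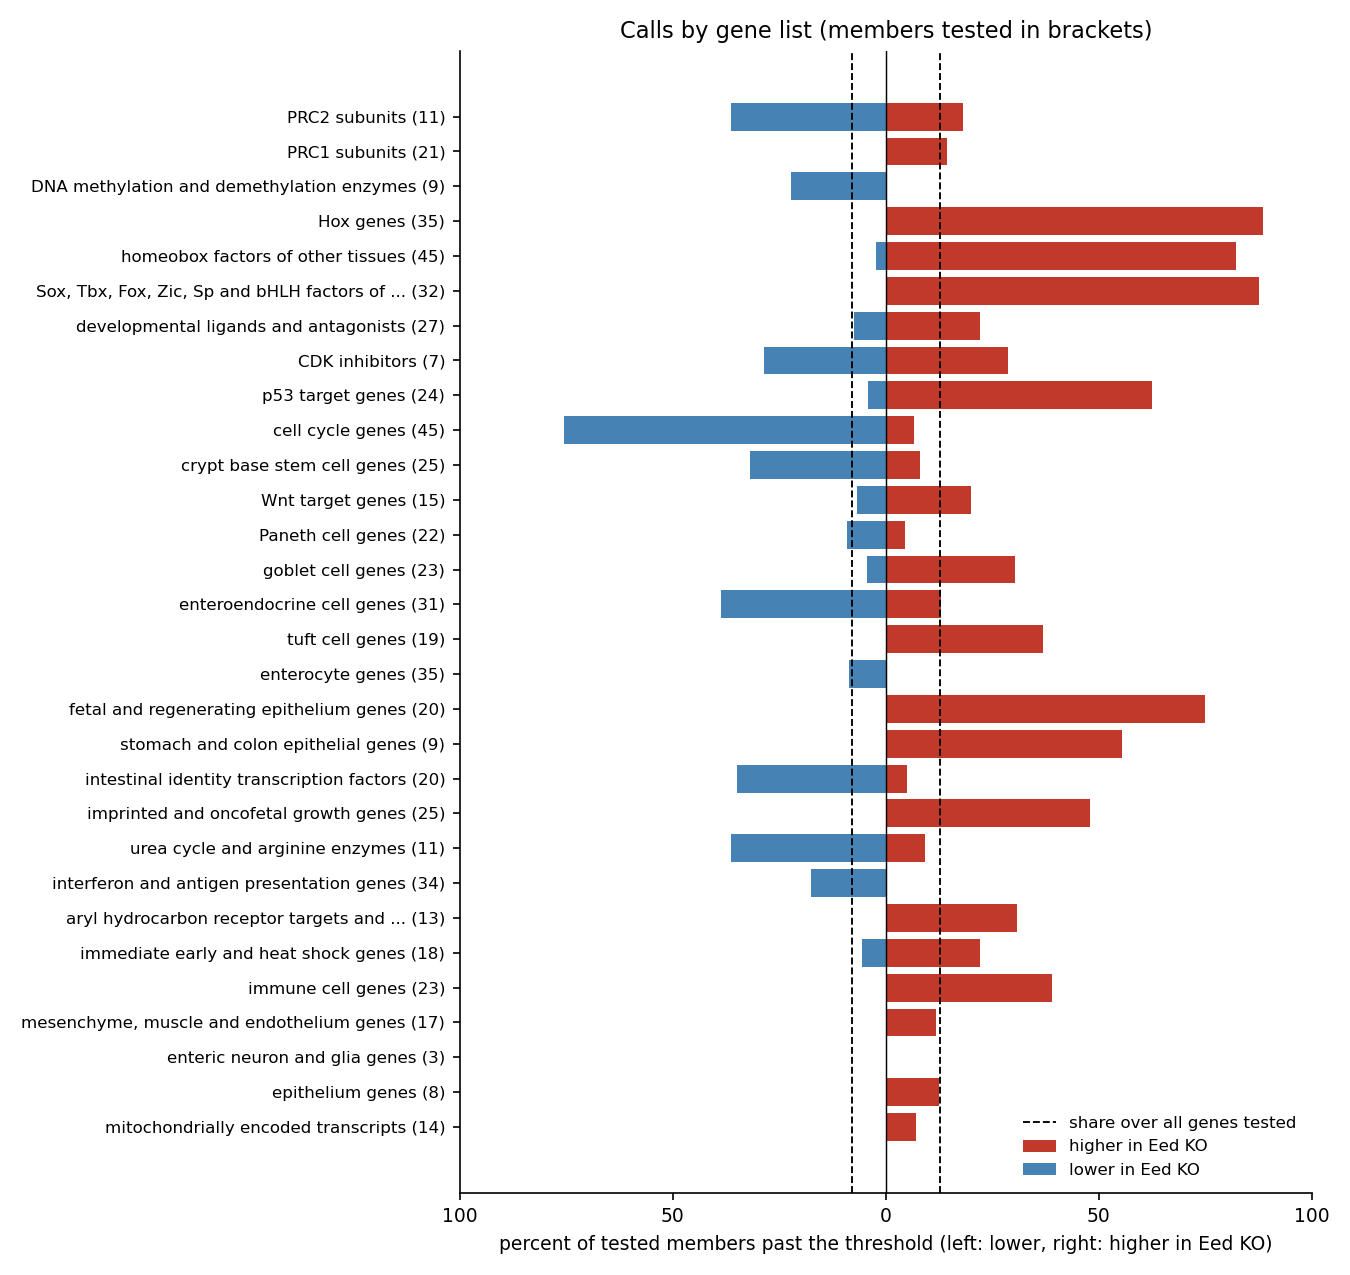
Percent of the tested members of 30 gene lists that were higher (right) or lower (left) in Eed KO than in Ezh2 KO at an adjusted p under 0.05; dashed lines are the shares over all genes tested (12.7% and 7.97%). The Hox and other developmental factor lists reach furthest to the right and the cell cycle list furthest to the left.

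Stem cell genes of the crypt base were read from 25 genes, of which 8 were lower in Eed KO and 2, Prom1 and Cd44, were higher (median -0.47). Olfm4, a secreted protein abundant in crypt base stem cells, was at 331, 317 and 672 CPM in Eed KO, 3258, 3733 and 3663 CPM in Ezh2 KO and 3837, 3929.7 and 3748 CPM in WT (-2.72 ± 0.31, adjusted p = 0.000663). Lgr5, the R-spondin receptor that marks these cells, was at 58.3, 39.5 and 37.3 CPM, 124, 122 and 144 CPM and 109, 122 and 89.4 CPM (-1.79 ± 0.22, adjusted p = 0.000998). For both genes all Eed KO libraries lay below every other library, and for Olfm4 the 3 Ezh2 KO libraries lay just below the 3 WT libraries. Smoc2, in contrast, did not pass the threshold at 328, 258 and 359.5 CPM against 278, 299 and 353 CPM (0.17 ± 0.19, adjusted p = 0.569). Clca4b was at 7.08, 5.88 and 64.2 CPM in Eed KO, higher in the run 440 library than in those of run 385, and at 346, 260.4 and 264 CPM in Ezh2 KO (-2.91 ± 0.66, adjusted p = 0.0152). Of the crypt base stem cell genes, 3 were higher and 6 lower within run 440 alone, and with both runs the number higher was 1 without WT 385_2, each Ezh2 KO library in turn or Eed KO 385_1. An adjusted p over 0.05 was reached for Cd44 without each WT library in turn, each Ezh2 KO library in turn or Eed KO 385_1 or 385_2 and within run 440 alone (adjusted p up to 0.117).

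Of 15 Wnt target genes, 3 were higher (20%, beside 12.7% of all genes tested) and 1 was lower (6.67%, beside 7.97%). Axin2, a feedback inhibitor of the Wnt pathway, was at 142, 85.4 and 159 CPM in Eed KO and 231, 236 and 273 CPM in Ezh2 KO, without overlap but not past the threshold (-0.91 ± 0.29, adjusted p = 0.0579). Lef1, a partner of beta-catenin with low levels in adult crypts, was at 22.7, 12.4 and 12.001 CPM against 0.372, 1.09 and 1.38 CPM (3.75 ± 0.51, adjusted p = 0.00158). Notum, an enzyme that inactivates Wnt ligands, was at 15.4, 10.8 and 8.21 CPM against 0.124, 0.319 and 0.877 CPM (4.04 ± 0.70, adjusted p = 0.00477). Of the Wnt target genes, 4 were higher and 1 lower within run 440 alone, and with both runs the number higher was 1 without Eed KO 440_1, and the number lower was 2 without Eed KO 385_2 or 440_1. Calls were lost for Notum without Eed KO 440_1 (adjusted p up to 0.0979).

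Paneth cells make antimicrobial proteins. The median log2 difference of 22 Paneth cell genes was -1.03 for Eed KO minus WT and -0.71 for Ezh2 KO minus WT, beside -0.04 and -0.01 over all genes tested. In Eed KO against WT 9 genes were called lower and 3 higher, beside 10.1% and 13.6% of all genes tested. In Ezh2 KO against WT 0 were called lower, beside 0.0143% of all genes tested. Between the knockouts 2 were lower in Eed KO, Ang4 and Itln1 (9.09%, near the 7.97% of all genes tested). Copz2 was the 1 gene higher (4.55%, beside 12.7%), and the median was -0.36. Ang4, an antimicrobial ribonuclease, was at 263, 409.8 and 523 CPM in Eed KO, 1052, 2308 and 2471 CPM in Ezh2 KO and 3762, 3625 and 3432 CPM in WT (-2.12 ± 0.43, adjusted p = 0.00972). Itln1, a lectin, was at 2948, 3292 and 3569 CPM, 8834, 10979 and 12987 CPM and 14565, 13340.0 and 22718 CPM (-1.44 ± 0.30, adjusted p = 0.0114). Lyz1, the Paneth cell lysozyme, was at 4569, 8259.9 and 10765 CPM in Eed KO, 10491, 21440.0 and 22599 CPM in Ezh2 KO and 42534, 44588 and 45145 CPM in WT. For Ang4, Itln1 and Lyz1 the Ezh2 KO libraries lay below all WT libraries. For Lyz1 they overlapped Eed KO, through Ezh2 KO 440_1, and the difference was not past the threshold (-0.97 ± 0.45, adjusted p = 0.16). Ezh2 KO minus WT was -1.56 for Lyz1 (adjusted p = 0.565) and -1.09 for Ang4 (adjusted p = 0.602). Alpha-defensin genes are near-identical copies whose reads counting can split or drop, and their values are uncertain. Of the Paneth cell genes, 1 was higher and 3 lower within run 440 alone, and with both runs the number higher was 0 without Ezh2 KO 440_1 or 440_2, and the number lower was 4 without Ezh2 KO 440_1. The call ended for Itln1 without Eed KO 440_1 (adjusted p up to 0.0874) and for Copz2 without Ezh2 KO 440_1 or 440_2 or Eed KO 440_1 (adjusted p up to 0.111).

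Goblet cell genes, which serve mucus secretion, went mostly 1 way where they passed the threshold: 7 of 23 were higher in Eed KO and 1, Capn9, was lower. Muc2, the main gel-forming mucin, was at 749.9, 768 and 2287 CPM against 3319.6, 958 and 1827 CPM, with overlap (0.05 ± 0.45, adjusted p = 0.952). Klk1, a kallikrein protease, was at 603, 787 and 653 CPM in Eed KO, 140.4, 127 and 122 CPM in Ezh2 KO and 129, 95.4 and 112 CPM in WT (2.36 ± 0.21, adjusted p = 0.000212). Spink4, a protease inhibitor of goblet granules, was at 3473, 4196 and 3807 CPM against 1308, 1497 and 1520.2 CPM (1.66 ± 0.26, adjusted p = 0.00271). Both were above Ezh2 KO in every Eed KO library. Of the goblet cell genes, 5 were higher and 2 lower within run 440 alone, and with both runs the number higher was 4 without Ezh2 KO 440_2 or 440_3, and the number lower was 3 without WT 440_1 and 6 without Eed KO 440_1.

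Of 31 enteroendocrine genes, 12 were lower in Eed KO (38.7%, beside 7.97% of all genes tested). 4 were higher (12.9%, near the 12.7% of all genes tested), and the median was -0.96. The lower ones included the progenitor factors Neurog3, Neurod1, Insm1 and Pax4 and the granule protein Chgb. Neurog3, needed to form these cells, was at 3.07, 1.87 and 4.91 CPM against 10.5, 11.9 and 15.7 CPM (-1.77 ± 0.41, adjusted p = 0.0162). Chgb was at 93.9, 117 and 124 CPM in Eed KO, 378, 362 and 449 CPM in Ezh2 KO and 528, 458 and 443 CPM in WT (-1.80 ± 0.22, adjusted p = 0.000897). The higher ones were Sct, Pax6, Scg2 and Cpe. Sct, the hormone secretin, was at 156, 169 and 172 CPM in Eed KO, 22.4, 19.9 and 20.4 CPM in Ezh2 KO and 7.72, 8.29 and 17.2 CPM in WT (3.40 ± 0.25, adjusted p = 0.000104). Pax6, a factor of hormone cells that also patterns the eye, was at 23.2, 28.5 and 16.7 CPM against 1.43, 1.09 and 1.504 CPM (3.78 ± 0.31, adjusted p = 0.000152). Ghrl, the hormone ghrelin, was highest in Ezh2 KO, at 74.4, 59.996 and 76.7 CPM, against 2.28, 6.39 and 17.5 CPM in Eed KO and 9.58, 12.2 and 18.5 CPM in WT (-2.35 ± 0.45, adjusted p = 0.00697). Of the enteroendocrine cell genes, 3 were higher and 9 lower within run 440 alone, and with both runs the number higher was 2 without Eed KO 440_1, and the number lower was 5 without Ezh2 KO 440_3 and 7 without Ezh2 KO 440_1. Significance was lost for Neurod1 without WT 385_2, Ezh2 KO 440_1 or 440_3 or Eed KO 440_1 (adjusted p up to 0.192), for Insm1 without Ezh2 KO 440_3 and within run 440 alone (adjusted p up to 0.0721), for Pax4 without Ezh2 KO 440_3 or Eed KO 440_1 and within run 440 alone (adjusted p up to 0.151), for Scg2 without Eed KO 440_1 (adjusted p up to 0.054) and for Cpe without Eed KO 440_1 and within run 440 alone (adjusted p up to 0.0575).

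Tuft cell genes, of the chemosensory cells, were above Ezh2 KO in every Eed KO library for 19 of 19 tested members, beside 21.9% of all genes tested. 7 of the 19 passed the threshold. WT differed between the runs for this list. Summed over the list, the lowest, middle and highest library were 359, 412 and 485 CPM in Eed KO, 80.2, 91.6 and 123 CPM in Ezh2 KO and 67.3, 293 and 395 CPM in WT, where the lowest was WT 440_1. Dclk1, a kinase that marks tuft cells, was at 55.4, 32.98 and 39.2 CPM in Eed KO, 9.11, 10.3 and 15.4 CPM in Ezh2 KO and 79.99, 51.5 and 5.23 CPM in WT (1.01 ± 0.67, adjusted p = 0.322). Trpm5, their taste channel, was at 52.4, 39.3 and 96.5 CPM, 9.61, 10.4 and 15.4 CPM and 56.8, 46.7 and 8.98 CPM (2.27 ± 0.66, adjusted p = 0.0412). WT 440_1 lay near the Ezh2 KO libraries and the run 385 WT libraries near those of Eed KO. Ptgs1 and Nrep did not split by run in WT: Nrep was at 28.1, 31.95 and 27.2 CPM, 7.999, 7.73 and 8.40 CPM and 5.86, 4.43 and 6.95 CPM (1.95 ± 0.24, adjusted p = 0.000924). Of the tuft cell genes, 16 were higher and 0 lower within run 440 alone, and with both runs the number higher was 2 without Eed KO 440_1, 3 without each Ezh2 KO library in turn or Eed KO 385_1, 4 without WT 385_2 and 17 without WT 440_1. An adjusted p over 0.05 was reached for Trpm5 without WT 385_2, each Ezh2 KO library in turn or Eed KO 385_1 or 440_1 (adjusted p up to 0.369). The Trpm5 difference turned to -0.58 without Eed KO 440_1.

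Of 35 enterocyte genes, of the absorptive cells, 3 were lower in Eed KO (8.57%, near the 7.97% of all genes tested) and 0 higher. The summed level was 2037, 2094 and 8483 CPM in Eed KO, the highest being Eed KO 440_1. It was 12992, 7249 and 9836 CPM in Ezh2 KO and 5318, 3558 and 6033 CPM in WT. Every Ezh2 KO library was thus above every WT library, and Eed KO 440_1 was above WT 440_1. Krt20, a keratin of mature cells, was at 23.7, 14.996 and 171 CPM against 533, 286 and 372 CPM (-1.74 ± 0.50, adjusted p = 0.0383). In WT it was at 122, 83.5 and 222 CPM, below every Ezh2 KO library. Of the enterocyte genes, 1 was higher and 2 lower within run 440 alone, and with both runs the number lower was 0 without Ezh2 KO 440_2, 1 without WT 385_2 or Ezh2 KO 440_1, 5 without WT 440_1 and 17 without Eed KO 440_1. Calls were lost for Krt20 without WT 385_2, each Ezh2 KO library in turn or Eed KO 385_1 and within run 440 alone (adjusted p up to 0.1).

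Transcription factors that maintain intestinal identity were lower in part, with 7 of 20 lower in Eed KO and 1, Foxa2, higher. Cdx1 and Cdx2, the homeobox factors that specify intestine, did not overlap between the groups: Cdx2 was at 34.1, 31.9 and 117 CPM in Eed KO, 224, 254 and 242 CPM in Ezh2 KO and 229, 192 and 183 CPM in WT (-1.56 ± 0.42, adjusted p = 0.0279). Cdx1 was at 27.7, 34.4 and 94.5 CPM against 243, 307 and 269 CPM (-1.79 ± 0.26, adjusted p = 0.00209). Hnf4g, a nuclear receptor of enterocyte genes, was at 27.6, 43.9 and 31.3 CPM against 183, 156 and 98.1 CPM (-2.42 ± 0.35, adjusted p = 0.00218). For Cdx1 and Cdx2 the Eed KO 440_1 library lay between the run 385 Eed KO libraries and Ezh2 KO. Of the intestinal identity transcription factors, 1 was higher and 7 lower within run 440 alone, and with both runs the number higher was 0 without WT 385_1 or 385_2 or Ezh2 KO 440_2, and the number lower was 4 without Ezh2 KO 440_1 or 440_2 or Eed KO 385_1 and 11 without Eed KO 440_1. The call ended for Foxa2 without WT 385_1 or 385_2 or Ezh2 KO 440_2 and within run 440 alone (adjusted p up to 0.0905) and for Cdx2 without Ezh2 KO 440_1 or 440_2 or Eed KO 385_1 (adjusted p up to 0.071).

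Genes of stomach and colon were read beside these factors. Of 20 listed, 17 were in both tables and 9 passed the filter, and 5 of the 9 were higher in Eed KO. Tff2, a peptide of gastric mucous cells, was at 38.5, 28.7 and 50.9 CPM in Eed KO, 0.434, 0.128 and 0.188 CPM in Ezh2 KO and 0.186, 0.0964 and 0.0594 CPM in WT (7.52 ± 0.43, adjusted p = 4e-05). Ctse, a protease of the stomach, was at 22.3, 13.9 and 26.5 CPM against 0.806, 0.447 and 1.25 CPM (4.72 ± 0.45, adjusted p = 0.00031). Gkn1, a gastric surface protein, was at 3.15, 6.82 and 24.8 CPM, with 3 counts in Ezh2 KO, a ratio of 204-fold (95% exact counting interval 69.3 to 991). Aqp8, a water channel of the colon, was at 1.73, 2.13 and 34.01 CPM, and most of its level came from Eed KO 440_1. Without Eed KO 440_1 the Tff2 difference was 5.86, with an adjusted p of 0.102. Muc5ac and Muc6, the gastric mucins, did not pass the filter on low counts. Of the stomach and colon epithelial genes, 7 were higher and 0 lower within run 440 alone, and with both runs the number higher was 1 without Eed KO 440_1, and the number lower was 1 without Eed KO 385_1. Significance was lost for Tff2, Gkn1 and Aqp8 without Eed KO 440_1 (highest adjusted p per gene 0.102 to 1).

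Genes of fetal and regenerating epithelium were higher in Eed KO for 15 of 20 tested members, and 0 were lower (median 3.35). Clu, the secreted chaperone clusterin, was at 1054, 282 and 1143 CPM in Eed KO, 46.5, 17.3 and 38.2 CPM in Ezh2 KO and 3.16, 11.2 and 70.4 CPM in WT (6.11 ± 0.94, adjusted p = 0.00284). Anxa3, a membrane-binding annexin, was at 61.8, 64.4 and 59.8 CPM, 4.96, 4.47 and 5.95 CPM and 1.49, 2.12 and 5.05 CPM (4.04 ± 0.37, adjusted p = 0.000256). Il1rn, the interleukin-1 receptor antagonist, was at 40.1, 39.3 and 34.3 CPM against 0.930, 1.98 and 1.63 CPM (4.60 ± 0.31, adjusted p = 6.99e-05). All 3 were above every Ezh2 KO and WT library in each Eed KO library. Ly6a, also called Sca-1, differed: it was at 24.7, 15.1 and 59.3 CPM in Eed KO, 16.4, 16.2 and 43.2 CPM in Ezh2 KO and 2.33, 2.602 and 6.18 CPM in WT. Both knockouts lay above every WT library for Ly6a, and they overlapped each other (1.16 ± 0.45, adjusted p = 0.103). Ezh2 KO minus WT was 1.94 for this gene, with an adjusted p of 0.565. Of the fetal and regenerating epithelium genes, 15 were higher and 0 lower within run 440 alone, and with both runs the number higher was 9 without Eed KO 440_1.

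Imprinted and oncofetal growth genes followed, with 12 of 25 higher in Eed KO and 0 lower (median 2.64). Of the imprinted and oncofetal growth genes, 13 were higher and 1 lower within run 440 alone, and with both runs the number lower was 1 without WT 440_1. Leaving out any 1 library gave 12 or 13 higher. Igf2, a fetal growth factor, was at 78.4, 52.9 and 115 CPM in Eed KO, 1.61, 1.79 and 1.82 CPM in Ezh2 KO and 1.86, 1.25 and 1.55 CPM in WT (5.86 ± 0.29, adjusted p = 1.71e-05). Igf2bp1, an RNA-binding protein of fetal tissues, was at 49.5, 46.9 and 45.8 CPM in Eed KO, with 1 count in Ezh2 KO and 0.0930, 0.193 and 0.357 CPM in WT. Igf2bp3, of the same family, was at 50.7, 42.9 and 43.9 CPM against 0.310, 0.639 and 0.564 CPM (6.55 ± 0.31, adjusted p = 1.66e-05). Dlk1, a Notch-related imprinted gene, was at 9.99, 9.80 and 11.9 CPM against 0.372, 0.319 and 0.627 CPM (4.89 ± 0.51, adjusted p = 0.000479), and Grb10, an inhibitor of growth factor signalling, at 58.4, 49.4 and 38.99 CPM against 9.11, 6.77 and 6.64 CPM (2.604 ± 0.32, adjusted p = 0.000994). No source used here says whether counting used strand, so reads of Igf2 and its antisense partner cannot be told apart.

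Metabolic and detoxification genes differed by family. Of 11 urea cycle and arginine genes, 4 were lower in Eed KO and 1, Ass1, was higher. Cps1, which starts the urea cycle and is abundant in small intestine, was at 28.7, 55.04 and 551 CPM in Eed KO, 3312, 3599 and 3277 CPM in Ezh2 KO and 4398, 3748 and 3484 CPM in WT (-3.43 ± 0.83, adjusted p = 0.0195). Each Eed KO library lay below every other library, and Eed KO 440_1 was the highest of them. Of the urea cycle and arginine enzymes, 1 was higher and 4 lower within run 440 alone, and with both runs the number higher was 0 without Eed KO 440_1, and the number lower was 1 without Ezh2 KO 440_2. Of 13 aryl hydrocarbon receptor targets and glutathione transferases, 4 were higher in Eed KO, all transferases: Gsta1, Gsta3, Gsta4 and Gstm1. Gsta4, which detoxifies lipid peroxides, was at 129, 147 and 152 CPM in Eed KO, 15.1, 14.8 and 12.6 CPM in Ezh2 KO and 7.25, 6.07 and 15.5 CPM in WT (3.79 ± 0.27, adjusted p = 9.24e-05). Cyp1a1, the receptor's best-known target, was at 0.393, 14.996 and 0.0622 CPM against 2.67, 0.128 and 0.752 CPM and 11.3, 1.54 and 0.476 CPM in WT, with overlap (-2.19 ± 1.98, adjusted p = 0.472). Of the aryl hydrocarbon receptor targets and glutathione transferases, 6 were higher and 1 lower within run 440 alone, and with both runs the number higher was 2 without Ezh2 KO 440_2 or Eed KO 440_1, and the number lower was 1 without WT 440_1 or Eed KO 385_2. An adjusted p over 0.05 was reached for Ass1 without Eed KO 440_1 (adjusted p up to 0.0587), for Gsta1 without Ezh2 KO 440_2 or 440_3 or Eed KO 440_1 (adjusted p up to 0.652) and for Gstm1 without Ezh2 KO 440_1 or 440_2 or Eed KO 440_1 (adjusted p up to 0.592).

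Interferon and antigen presentation genes were lower in Eed KO for 6 of 34 members (17.6%, beside 7.97% of all genes tested). 0 were higher, beside 12.7%. The median difference of the list was -0.02, and 16 of the 34 were above 0. Psmb8 and Psmb9, subunits of the immunoproteasome, were among the 6: Psmb8 was at 49.4, 38.002 and 94.1 CPM in Eed KO, 295, 325 and 336 CPM in Ezh2 KO and 124, 157 and 384 CPM in WT (-1.64 ± 0.22, adjusted p = 0.00153). Psmb9 was at 27.1, 21.8 and 74.1 CPM against 215, 227 and 202 CPM (-1.43 ± 0.20, adjusted p = 0.00199). WT 440_1 was above the Ezh2 KO libraries for both, and the run 385 WT libraries were below them. Of the interferon and antigen presentation genes, 4 were higher and 6 lower within run 440 alone, and with both runs the number higher was 1 without WT 385_2 or Eed KO 385_1 or 385_2 and 3 without WT 440_1, and the number lower was 3 without Ezh2 KO 440_2.

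Marker lists of other cells were read in the same libraries. Of 23 tested immune cell genes, 9 were higher in Eed KO (39.1%, beside 12.7% of all genes tested) and 0 lower (beside 7.97%). In library order, the list summed to 338, 407 and 244 CPM in Eed KO. It summed to 71.5, 133 and 124 CPM in Ezh2 KO and 139.9, 146 and 192 CPM in WT. Cd79a, of B cells, was at 25.7, 18.7 and 10.2 CPM against 3.35, 2.88 and 3.51 CPM (2.11 ± 0.35, adjusted p = 0.00405). In WT it was at 8.56, 9.45 and 9.63 CPM. Every Ezh2 KO library lay below every WT library for Cd79a, and Eed KO 440_1 lay just above WT 440_1. Mcpt1, of mucosal mast cells, was at 1.49, 4.69 and 69.7 CPM in Eed KO, high in Eed KO 440_1 only. It was at 1.12, 1.66 and 1.32 CPM in Ezh2 KO and 3.81, 2.31 and 7.19 CPM in WT. Of 17 genes of mesenchyme, muscle and endothelium, 2 were higher, Pdgfra and Pecam1 (11.8%, near the 12.7% of all genes tested). The summed level was 123, 204 and 138 CPM in Eed KO and 327, 108 and 326 CPM in Ezh2 KO. The 8 epithelial genes, led by Epcam, summed to 5407, 4907 and 9702 CPM in Eed KO and 8908, 8277 and 7768 CPM in Ezh2 KO. The 8 enteric neuron and glia genes in both tables summed to at most 12.4 CPM in any library. The part of these other cells in the differences of the other lists was not tested. Of the immune cell genes, 6 were higher and 0 lower within run 440 alone. Of the mesenchyme, muscle and endothelium genes, 1 was higher and 0 lower within run 440 alone, and with both runs the number higher was 0 without Ezh2 KO 440_1 or 440_2, 1 without WT 385_2, Ezh2 KO 440_3 or Eed KO 385_2 and 6 without Eed KO 440_1. Calls were lost for Mcpt1 without Eed KO 440_1 (adjusted p up to 0.0629), for Pdgfra without each Ezh2 KO library in turn (adjusted p up to 0.0648) and for Pecam1 without WT 385_2, Ezh2 KO 440_1 or 440_2 or Eed KO 385_2 or 440_1 and within run 440 alone (adjusted p up to 0.222).

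Smaller lists completed the set. The list of DNA methylation and demethylation enzymes, which also held the histone demethylase Kdm6b, had 9 tested members. Of the 9, 0 were higher and 2, Uhrf1 and Tet1, were lower (22.2%, beside 7.97% of all genes tested). Of 18 genes of the immediate early and heat shock responses, 4 were higher (22.2%, beside 12.7%) and 1 was lower (5.56%). Of 14 mitochondrially encoded transcripts, 1 was higher (7.14%, beside 12.7%). Of the DNA methylation and demethylation enzymes, 0 were higher and 2 lower within run 440 alone, and with both runs the number lower was 0 without Ezh2 KO 440_2 and 1 without WT 385_1 or 385_2, Ezh2 KO 440_1 or Eed KO 385_1. Of the immediate early and heat shock genes, 4 were higher and 1 lower within run 440 alone, and with both runs the number higher was 2 without Eed KO 440_1. Of the mitochondrially encoded transcripts, 0 were higher and 0 lower within run 440 alone, and with both runs the number higher was 0 without each WT library in turn, Ezh2 KO 440_1 or 440_2 or Eed KO 385_1 or 385_2 and 2 without Eed KO 440_1. The call ended for Uhrf1 without Ezh2 KO 440_2 (adjusted p up to 0.0516) and for Tet1 without WT 385_1 or 385_2, Ezh2 KO 440_1 or 440_2 or each Eed KO library in turn and within run 440 alone (adjusted p up to 0.223).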

How the data were processed

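RNA of 9 crypt libraries was read from 2 deposited tables of counts per gene, 1 per sequencing run. Per the submitters' processing notes, GRCm38, TopHat2 2.0.12, Bowtie 0.12.9, HTSeq and DESeq2 were used by the authors. The kit kept strand; no source used here says whether counting used it. The tables shared 21420 gene identifiers; 852 on X or Y were left out because sex is not labelled, which left 20568. Symbols came from GENCODE release M21. Depth per library was 11421666 to 18300644 counts.

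Counts were tested with edgeR 4.0.16 (R 4.3.3; quasi-likelihood F test, robust, TMM scaling). Genes were kept with a count of at least 10 (total 15) by edgeR's group filter, which left 13966. The model held group and run over the 9 libraries, with 5 residual degrees of freedom, and the threshold was a Benjamini-Hochberg adjusted p of 0.05. The procedure was run on simulated counts with changes in Eed KO and no run difference, so the simulation could not test the run adjustment. For a gene with no count in 1 group the fold is a lower bound against 3 counts over that group, and for 1 to 3 counts a 95% exact counting interval is given, which covers counting error only. Genes were named as the 12 largest protein-coding differences in each direction, groups not overlapping and at least 10 CPM in the higher group, and members of 30 gene lists. The lists, the members named and the comparison were chosen with earlier results of these data known. Alternatives were DESeq2 1.42.0, RLE factors, other filters and designs, run 440 alone, a replicate block and leaving out each library. Eed KO and Ezh2 KO share only the replicate number 440_1, while Eed KO and WT share 385_1, 385_2 and 440_1. A shared number is only a label, so it pairs no samples here.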

Additional observations from a re-analysis of the deposited data

How the results depend on the processing

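No gene called between the knockouts was called in the opposite direction under any of the 20 alternatives, which reuse the same libraries. The count of higher genes stayed within 1.5 times of 1779 except with the replicate block (33 higher and 0 lower, at 2 residual degrees of freedom) and without Eed KO 440_1. Leaving out 1 library gave 1093 to 1910 higher and 578 to 2109 lower genes. DESeq2 gave 1801 lower genes and leaving out the WT libraries of run 385 gave 1740, against 1113. The replicate numbers share only a label: the difference of Eed KO 385_1 and 385_2 correlated at 0.155 over genes with that of WT 385_1 and 385_2. Of 136 named genes past the threshold, 80 kept the call without Eed KO 440_1, 124 within run 440 alone, 134 with DESeq2 and 16 with the replicate block. Some named differences changed sign when 1 library was left out, and their lowest and highest values over these fits were -0.66 and 0.97 for Cdkn2b, -1.73 and 1.67 for Dclk1, -0.0046 and 0.60 for Ezh1, -0.67 and 2.51 for H2-Eb1, -7.41 and 4.48 for Hmga1b, -0.48 and 2.72 for Hoxb2, -0.78 and 2.12 for Lin28b, -0.30 and 0.59 for Muc2, -6.91 and 1.65 for Retnlb, -0.58 and 2.94 for Trpm5, and -0.063 and 4.17 for Wnt10a. Of these, Hmga1b, Trpm5 and Wnt10a were past the threshold with all libraries. Without a run term Cyp1a1 was at 2.10, Lin28b at 1.65 and Muc2 at -0.68. Muc2 was also at -0.0016 without a filter. With the replicate block Cdkn2b was at -0.030 and Muc2 at -0.66. DESeq2 put Hmga1b at 0.70. Hoxb2 was at -0.39 within run 440, -0.44 with the knockouts only and -0.48 without the run 385 WT libraries. The cause of these changes was not tested. Groups of 3 libraries and 1 shared run limit every comparison here, and a gene without counts in WT rests on Eed KO 440_1 for its run difference.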

Other observations

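Outside the lists, 5 more genes that were higher in Eed KO are given, chosen after their values were seen. Slc9a4, a sodium-proton exchanger of the stomach, was at 132, 131 and 92.1 CPM in Eed KO, 0.186, 0.0639 and 0.0627 CPM in Ezh2 KO and 0.279, 0.386 and 0.0594 CPM in WT (log2 difference 9.57 ± 0.37, adjusted p = 6.54e-06, edgeR). Wfdc2, a secreted protease inhibitor of airway and genital epithelia, was at 111, 97.8 and 137 CPM, 2.85, 3.96 and 3.45 CPM and 0.558, 0.482 and 0.892 CPM in the same order (5.38 ± 0.21, adjusted p = 6.54e-06). Car2, a carbonic anhydrase, was at 195, 202 and 250.3 CPM against 2.67, 4.03 and 5.45 CPM in Ezh2 KO (5.95 ± 0.30, adjusted p = 1.71e-05). Krt4, a keratin of squamous epithelium, was at 129.7, 51.8 and 145 CPM against 0, 0.319 and 0.0627 CPM (10.08 ± 0.71, adjusted p = 8.06e-05), and Muc1, a membrane mucin, was at 71.6, 35.2 and 143 CPM against 0.744, 0.128 and 0.188 CPM (8.41 ± 0.71, adjusted p = 0.000187). In each case every Eed KO library was above every Ezh2 KO library. Significance was lost for Muc1 without Eed KO 440_1 (adjusted p up to 0.933).

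Lin28b, an RNA-binding protein that blocks let-7 maturation in fetal tissue, was also chosen after its values were seen. It was at 12.04, 20.8 and 2.55 CPM in Eed KO and 5.58, 2.81 and 2.82 CPM in Ezh2 KO, and had no count in any WT library. All 6 knockout libraries thus carried reads of it, and the difference between the knockouts did not pass the threshold (-0.53 ± 0.57, adjusted p = 0.554).

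Several abundant genes separated the libraries in a way that followed neither genotype nor run, again chosen after their values were seen. Pla2g2a, a Paneth cell phospholipase that is disrupted in C57BL/6 mice, was at 93.4, 73.2 and 98.5 CPM in Eed KO, 6985, 8094 and 10567 CPM in Ezh2 KO and 215, 265 and 13846 CPM in WT. The 3 Eed KO and the run 385 WT libraries were low, and WT 440_1 was high with the Ezh2 KO libraries. Retnlb, a goblet cell peptide, was at 2.20, 2.13 and 10.9 CPM, 1559, 1066 and 1078 CPM and 0.465, 1.16 and 1464 CPM, with the same division. Nnt, a mitochondrial transhydrogenase of which C57BL/6J mice lack part, was at 38.4, 35.8 and 49.7 CPM, 152, 164 and 160.0 CPM and 85.8, 81.1 and 164 CPM. H2-Eb1, a class II antigen gene, had the opposite order, at 131, 74.3 and 162 CPM, 32.4, 24.7 and 22.9 CPM and 159, 290.1 and 36.8 CPM. Of these 4 genes, Nnt passed the threshold between the knockouts (-1.48 ± 0.20, adjusted p = 0.00152), and without WT 440_1 the other 3 did as well. The labels give every crypt mouse as C57BL/6-FVB mixed and no share of either strain per library, so strain was not tested.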
